A study of Rattus norvegicus with 25 samples.

Results

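The gingiva of 5 rats with experimental periodontitis that received the combined curcumin and zinc oxide nanoparticle hydrogel (Cur/ZNP gel) was compared with the gingiva of 5 sham rats, using 10 of the study's 25 RNA sequencing libraries. All 5 libraries of each group and every gene that passed a filter on low counts entered the comparison, and the 5 libraries of rats with experimental periodontitis and no drug (EP) are given beside them. The animals were wild type Sprague-Dawley rats, males of 8 weeks in the study's methods and 6 weeks of age in the sample labels. In Cur/ZNP gel rats, silk was ligated around the first molars of the upper jaw on both sides and smeared with Porphyromonas gingivalis. About a month later, 200 µL of hydrogel holding 1 mg/mL curcumin and 1 mg/mL zinc oxide nanoparticles was injected into the pocket once a week for 4 weeks. EP rats had the ligature and the bacterium. Sham rats were the healthy controls and received hydrogel without drug. The sources used here do not state whether EP rats received a drug-free gel, and they give no time of day for the harvest and no batch, so that these cannot be told apart from the group. The comparison shows what still differed from healthy gingiva after the 4 weeks of combined gel.

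The libraries were made from bulk gingiva, in which fewer cells of a type and less RNA per cell cannot be told apart. The Cur/ZNP gel libraries held 58.8 to 62.7 M reads on genes and the sham libraries 50.7 to 61.5 M (exact permutation test, two-sided, p = 0.119, adjusted p = 0.357 over 6 library measures). Krt14 and Krt4, keratins of oral epithelium, were present in every library, but transcripts of tissues that border the gingiva varied widely between libraries. Whether the tissue taken differed was not tested. In sham 4, secretory genes of the nasal glands took 22.2% of all reads, against 0.0619% to 0.145% in the Cur/ZNP gel libraries and at most 0.0535% in the other sham libraries, and its 10 highest genes held 51.0% of the reads. The EP libraries held 2 of this kind, EP 3 and EP 4, with 16.9% and 20.9% on nasal gland genes and 40.7% and 47.7% on their 10 highest genes. Transcripts of neurons were high in Cur/ZNP gel 2 and in sham 1, sham 3 and sham 4. The results below are therefore also given without these sham libraries, an alternative chosen by their transcripts that keeps Cur/ZNP gel 2. It leaves 2 sham libraries, sham 2 and sham 5. Their summed counts of salivary secretion genes were 2425246 and 1809686, against 11446 to 453636 in the sham libraries left out. The alternative thus does not balance transcripts of bordering tissues between the groups. Correlations of log2 counts between libraries were 0.855 to 0.953 within Cur/ZNP gel, 0.722 to 0.949 within sham and 0.615 to 0.932 between the groups.

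Of 16062 genes tested, 6366 (39.6%) differed between Cur/ZNP gel and sham at a Benjamini-Hochberg adjusted p under 0.05 in limma. Of these, 3245 (20.2% of the genes tested) were higher and 3121 (19.4%) lower in Cur/ZNP gel. The difference was at least 2-fold for 1964 of the higher and 850 of the lower genes, and at least 8-fold for 273 and 104. Every Cur/ZNP gel library lay above every sham library for 1527 genes (9.51%) and below every sham library for 1487 genes (9.26%). Counts of called or non-overlapping list members below are to be read beside these shares of all genes. Differences are given throughout as log2(normalized count + 1), Cur/ZNP gel minus sham, with the standard error, and their median over all genes tested was -0.06. Scaling by the library total moved that median to 0.15 and the share of higher genes among 3372 calls to 80.2%. Without sham 1, sham 3 and sham 4, 1282 genes (7.98%) were called, 544 higher and 738 lower. Calls were thus fewer over all genes, and list counts from that fit are to be read beside these numbers. A gene whose difference is printed below as called kept its call there unless its loss, or that of its whole list, is stated. No single library left out took the count of calls outside 5140 to 7221. The p values and standard errors rest on a spread estimated over all 25 libraries, not over these 10 alone. With both groups fitted alone, 3653 genes (22.7%) were called, 1944 higher and 1709 lower. The replicates are separate rats, and the lists of genes described below hold 849 tested members.

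Among all genes, the largest rises with no overlap between the groups were led by genes of striated muscle and by Gpr165, an orphan receptor. Gpr165 had 217, 184, 306, 324 and 340.3 normalized counts in the Cur/ZNP gel libraries, against 0, 122, 0, 0 and 0 in the sham libraries (difference 6.68 ± 0.88, adjusted p = 4.3e-05). The sham value came from sham 2 alone, so that the fitted difference depends on the added count of 1. The smallest p values among the rises belonged to Per1, F13a1, Epm2a, Gsta1, Tsc22d3 and Zbtb16. Epm2a, which encodes laforin, a phosphatase that acts on glycogen, averaged 512 ± 162 normalized counts in Cur/ZNP gel and 45.4 ± 23.7 in sham (SD, n = 5 each; difference 3.54 ± 0.36, adjusted p = 4.9e-06). Selenop, the plasma carrier of selenium, averaged 11063 ± 1605 in Cur/ZNP gel and 2984 ± 936 in sham (1.94 ± 0.23, adjusted p = 1.8e-05). Gda, guanine deaminase, lay at 6417 to 7143 normalized counts in the Cur/ZNP gel libraries, against 467 to 2030.1 in the sham libraries (2.94 ± 0.33, adjusted p = 1.1e-05). Genes of cell division filled most of the list of largest falls, with Aurkb, Pttg1, Ska1, Ube2c, Birc5, Cdca3 and Cks2 beside the clock gene Arntl. Serpina11, a member of the serpin family, lay at 27.8 to 125 in Cur/ZNP gel and 207 to 567 in sham (-2.41 ± 0.34, adjusted p = 6.8e-05). The genes named in this paragraph kept their calls without sham 1, sham 3 and sham 4.

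Most circadian clock genes differed between Cur/ZNP gel and sham, the Per and Cry repressors upward and the activators Arntl and Npas2 downward. In the clock, the transcription factors ARNTL and CLOCK or NPAS2 switch on the Per and Cry genes, whose proteins return to repress them, and the cycle takes about a day in most tissues, oral epithelium included. The same pair acts through the DNA sequence CACGTG, called the E-box, and also drives the output factors Dbp, Tef and Hlf. Of 19 tested clock genes, 14 rose and 2 fell in Cur/ZNP gel, with a median difference of 1.24 (against 20.2% of all genes called higher). When sham 1, sham 3 and sham 4 were left out, 12 rose and 3 fell. Summed over the list, the counts were 96783, 82491, 94109, 92386 and 101859.8 in Cur/ZNP gel and 40125, 47240.3, 70358, 50137 and 56206 in sham, with no overlap.

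Per1, a repressor of the clock (chromosome 10, 55687050 to 55695994, plus strand, Rnor_6.0), had 6306, 6033, 7602, 5666 and 7958 normalized counts in the Cur/ZNP gel libraries, against 1321, 1533, 1733, 1187 and 2213 in the sham libraries. Each Cur/ZNP gel library lay above every sham library, and the difference was 2.09 ± 0.15 (adjusted p = 4.8e-08). Per2 read 6381, 4662, 7595, 7133 and 8148 normalized counts in the Cur/ZNP gel libraries, against 1379, 895, 2562, 2224 and 2192 in the sham libraries (1.95 ± 0.25, adjusted p = 2.9e-05). Again no sham library reached the lowest Cur/ZNP gel library, which was Cur/ZNP gel 2. Per3 differed by 1.76 ± 0.25, Cry1 by 1.24 ± 0.19 and Cry2 by 0.96 ± 0.15, and none of these overlapped between the groups. Of the output genes, Tef averaged 13277 ± 1938 in Cur/ZNP gel and 4927 ± 1615 in sham (1.48 ± 0.18, adjusted p = 2.2e-05), Hlf differed by 2.06 ± 0.35 (adjusted p = 0.00023) and Dbp by 1.19 ± 0.33 (adjusted p = 0.0068), Dbp with overlap between the groups and without a call when both groups were fitted alone (adjusted p = 0.062).

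The activators Arntl and Npas2 went the other way. Arntl (chromosome 1, 178039063 to 178137465, plus strand) had 217, 469, 226, 234 and 225 normalized counts in the Cur/ZNP gel libraries, against 1738, 2705, 955, 1047 and 1156 in the sham libraries, and fell by 2.42 on the log2 scale (adjusted p = 5.0e-06). Its highest Cur/ZNP gel value, in Cur/ZNP gel 2, was below its lowest sham value, in sham 3. Npas2, which can stand in for CLOCK, fell by 1.75 (adjusted p = 0.0002) with 394, 223, 369.9, 361 and 356 normalized counts in the Cur/ZNP gel libraries, against 1239, 2379.8, 888, 781 and 892 in the sham libraries. Sham 2 was the highest library for both of these and the lowest for Per2 and Ciart. The activator Clock was not called (0.68 ± 0.63, adjusted p = 0.4), with 4469.5, 4829, 6027, 4623 and 4915 normalized counts in the Cur/ZNP gel libraries, against 5204, 7504, 6483, 177 and 6206 in the sham libraries. Sham 4 was far below all other libraries for Clock, and the remaining sham libraries lay above the Cur/ZNP gel median. Nr1d1, a repressor of Arntl, showed no detectable difference (-0.08 ± 0.18, adjusted p = 0.76), with 10889, 8474, 7916, 8510.3 and 8483 normalized counts in the Cur/ZNP gel libraries, against 6689, 8713, 13790.0, 8598 and 9913 in the sham libraries. In EP rats, against the same sham libraries, Per1 differed by 1.98 (adjusted p = 1.4e-07), Per2 by 1.59 (adjusted p = 0.00017) and Arntl by -2.36 (adjusted p = 1.3e-05). No time of day was given for the harvest of any group, and its part in these differences was not tested.

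**Figure D1:**
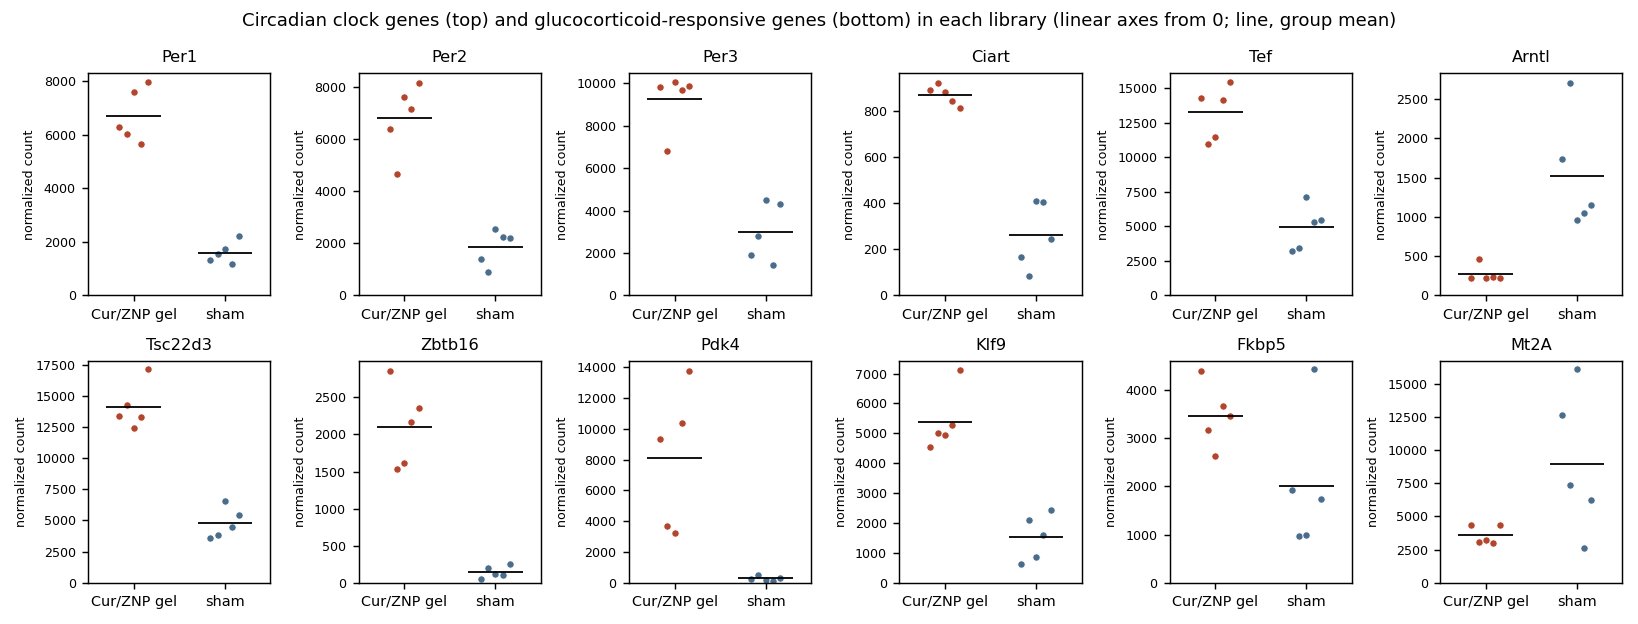
Normalized counts (linear axes from 0) of clock genes in the upper row and of glucocorticoid-responsive genes in the lower row. Each point is 1 library, with Cur/ZNP gel left and sham right (5 each), and lines are group means. The groups do not overlap for Per1, Per2, Per3, Ciart, Tef and Arntl, nor for Tsc22d3, Zbtb16, Pdk4 and Klf9, whereas for Fkbp5 sham 4 lies at 4433, above all Cur/ZNP gel libraries, and for Mt2A sham 4 lies below them.

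Promoter sequences are shown for the repressors Ciart and Bhlhe41, because both rose and both carry E-boxes close to the start of the gene. Ciart had 889.7, 919.5, 879, 843 and 810.5 normalized counts in the Cur/ZNP gel libraries, against 165, 82.7, 408, 404 and 246 in the sham libraries (1.95 ± 0.33, adjusted p = 0.0002) and Bhlhe41 differed by 2.13 ± 0.26 (adjusted p = 2.2e-05). The groups did not overlap for either gene. Each line gives the 150 bases before the start of the gene, 5′ to 3′ on the gene's strand, from RefSeq (GRCr8), with CACGTG in capitals (the sequence reads the same on both strands). Ciart lies at chr2:186112247-186112396, minus strand, and Bhlhe41 at chr4:180569356-180569505, minus strand.
Ciart: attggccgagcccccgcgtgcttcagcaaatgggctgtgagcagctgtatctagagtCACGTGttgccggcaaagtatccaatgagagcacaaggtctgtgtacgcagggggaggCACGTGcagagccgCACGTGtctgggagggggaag
Bhlhe41: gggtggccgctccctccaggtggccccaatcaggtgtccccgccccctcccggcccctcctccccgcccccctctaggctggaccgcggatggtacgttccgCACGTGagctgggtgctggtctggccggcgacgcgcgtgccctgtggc
In the 250 bases before the start, CACGTG was found for 4 of 16 clock genes with a sequence (25%) and in 5.80% of 27457 promoters. Ciart held 3 copies, and Bhlhe41, Bhlhe40 and Tef 1 each. Per1, Per2, Per3 and Dbp held none in this window. A match is a description of the sequence, not a measured site.

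Glucocorticoids are adrenal steroids that act through the receptor NR3C1, restrain inflammation and change with the time of day. Of 14 tested genes known to respond to them, 9 rose and 1 fell in Cur/ZNP gel. Of all genes 20.2% rose and 19.4% fell, and the median difference of the list was 1.07. With sham 1, sham 3 and sham 4 left out, 8 rose and none fell. Per1 is counted in both the clock and the glucocorticoid list. Tsc22d3, which encodes the anti-inflammatory protein GILZ, had 13419.9, 14285, 12415, 13261 and 17153 normalized counts in the Cur/ZNP gel libraries, against 3587, 3856, 6551, 4469.8 and 5412 in the sham libraries (1.59 ± 0.17, adjusted p = 9.3e-06). The lowest Cur/ZNP gel library held 12415 and the highest sham library 6551 normalized counts. Zbtb16, a zinc finger repressor, had 2857, 1536, 1609, 2165 and 2356 normalized counts in the Cur/ZNP gel libraries, against 56.9, 193, 111, 109.8 and 257 in the sham libraries (3.99 ± 0.43, adjusted p = 9.3e-06). Here sham was low throughout, and the groups lay far apart. Pdk4, the kinase that turns off pyruvate dehydrogenase when fat is burned, differed by 4.78 ± 0.81 (adjusted p = 0.00023), Klf9 by 1.99 ± 0.28 (adjusted p = 6.8e-05) and the phosphatase gene Dusp1 by 1.17 ± 0.18 (adjusted p = 0.00012). The receptor gene Nr3c1 itself averaged 6030.1 ± 559 in Cur/ZNP gel and 4299 ± 289 in sham (0.49 ± 0.09, adjusted p = 0.00061).

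Fkbp5, a co-chaperone of the receptor, rose by 1.01 ± 0.32 (adjusted p = 0.016), with 4389.5, 3171, 2624, 3654 and 3450.2 normalized counts in the Cur/ZNP gel libraries, against 1933, 965, 986, 4433 and 1727 in the sham libraries. Sham 4 held the highest value of all, and the call was lost without sham 3 (adjusted p = 0.056), in edgeR (0.058) and with both groups fitted alone (0.077). Mt2A, a metallothionein that both zinc and glucocorticoids induce, was the member that fell (-1.09 ± 0.36, adjusted p = 0.022), a call lost without sham 1 (adjusted p = 0.071) or sham 3 (adjusted p = 0.077), without sham 1, sham 3 and sham 4 together, with library-total scaling and with both groups fitted alone. EP rats, against the same sham libraries, gave 8 rises and 1 fall among the 14 genes of the list (median 0.50). There Tsc22d3 differed by 0.75 (adjusted p = 0.0024), Zbtb16 by 2.58 (adjusted p = 0.00026) and Fkbp5 by 0.38 (adjusted p = 0.36). Between Cur/ZNP gel and EP, Tsc22d3 differed by 0.84 (adjusted p = 0.29) and Zbtb16 by 1.40 (adjusted p = 0.29), neither past the threshold.

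Genes of mitosis were lower throughout. Their products build the spindle, hold and part the chromosomes and drive the cell through division, and in gingiva they are mainly found in the basal epithelium, which renews itself quickly. All 22 tested mitosis genes fell in Cur/ZNP gel, against 19.4% of all genes, with a median difference of -1.74. For 20 of them the groups did not overlap, against 9.26% of all genes. With any 1 library left out 21 or 22 of them fell, without sham 1, sham 3 and sham 4 21 fell, and with scaling by the library total 19 fell. The summed counts of the list were 10780.3, 13015, 11357, 14811 and 9165 in Cur/ZNP gel and 52246, 34611, 41826, 36427 and 39891 in sham. The highest Cur/ZNP gel library, Cur/ZNP gel 4, had less than the lowest sham library, sham 2.

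Cdca8, a subunit of the complex that checks chromosome attachment, had 315, 312, 307, 391 and 238 normalized counts in the Cur/ZNP gel libraries, against 1410.0, 924, 1303, 896 and 979.7 in the sham libraries (-1.81 ± 0.17, adjusted p = 2.8e-06). Aurkb, the kinase of the same complex (chromosome 10, 55626741 to 55634991, plus strand, Rnor_6.0), had 425, 424, 379, 663 and 308 normalized counts in the Cur/ZNP gel libraries, against 6191, 1324, 1171, 12086 and 1978 in the sham libraries (-2.80 ± 0.50, adjusted p = 0.00033). Sham 1 and sham 4 were far above the other sham libraries for Aurkb, but the remaining sham libraries also exceeded all Cur/ZNP gel libraries. Birc5 (survivin), also of that complex, averaged 211 ± 43.9 in Cur/ZNP gel and 1135 ± 444 in sham (-2.36 ± 0.27, adjusted p = 1.1e-05). Mki67, the proliferation marker Ki-67, had 1965, 2499, 1931, 3103 and 1590.2 normalized counts in the Cur/ZNP gel libraries, against 10378, 6065, 8269, 5484 and 7095 in the sham libraries (-1.75 ± 0.26, adjusted p = 0.0001). Top2a, which untangles DNA, fell by 1.85 (adjusted p = 7.9e-05), Ube2c by 2.38 (adjusted p = 2.9e-05) and Cdc20 by 1.74 (adjusted p = 0.00011), the last pair being parts of the system that destroys cyclin B. Bub1, of the spindle checkpoint, was the member with the smallest fall (-1.03 ± 0.18), and its call was lost with scaling by the library total.

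The pair of mitosis genes whose groups overlapped was Ccnb1 and Plk1. Ccnb1, cyclin B1, had 437, 399.7, 282, 329 and 317 normalized counts in the Cur/ZNP gel libraries, against 1548, 1421, 1472, 435 and 1393 in the sham libraries (-1.71 ± 0.30, adjusted p = 0.00027). Sham 4 was the only sham library inside the Cur/ZNP gel range, and the call held in every alternative run. Plk1, a mitotic kinase, was the least certain member (-1.23 ± 0.47, adjusted p = 0.042). Its call was lost in 7 of the 10 fits with 1 library left out, without sham 1, 2, 3 or 5 or Cur/ZNP gel 1, 4 or 5, with adjusted p values of up to 0.14. It was also lost in edgeR (adjusted p = 0.11), in DESeq2 (0.09), with library-total scaling (0.20), with no filter (0.057), with both groups fitted alone (0.095) and without sham 1, sham 3 and sham 4 (0.15).

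Promoters of Cdk1, Cdc20, Cdca8 and Ccnb1 are shown because mitotic genes are known for 2 short elements, the CHR (TTTGAA), bound by the DREAM and MuvB complexes, and CCAAT boxes, bound by NF-Y. Cdk1, the kinase that starts mitosis, had 379, 402, 346, 479 and 307 normalized counts in the Cur/ZNP gel libraries, against 1662, 995, 1850.1, 984 and 1305 in the sham libraries (-1.79 ± 0.25, adjusted p = 6.8e-05), with no overlap. Each line gives the 150 bases before the gene's start from RefSeq (GRCr8), 5′ to 3′ on the gene's strand, with TTTGAA and CCAAT in capitals on either strand (TTCAAA and ATTGG are the reverse readings). In Cdca8 the elements share bases. Cdk1 lies at chr20:19265143-19265292, plus strand, Cdc20 at chr5:137255800-137255949, minus strand, Cdca8 at chr5:142483200-142483349, minus strand and Ccnb1 at chr2:33655226-33655375, minus strand.
Cdk1: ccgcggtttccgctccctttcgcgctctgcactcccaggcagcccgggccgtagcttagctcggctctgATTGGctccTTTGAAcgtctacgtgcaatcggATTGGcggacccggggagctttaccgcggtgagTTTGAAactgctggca
Cdc20: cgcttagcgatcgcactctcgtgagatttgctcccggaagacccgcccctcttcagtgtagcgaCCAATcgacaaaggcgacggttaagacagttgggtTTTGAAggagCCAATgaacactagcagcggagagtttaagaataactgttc
Cdca8: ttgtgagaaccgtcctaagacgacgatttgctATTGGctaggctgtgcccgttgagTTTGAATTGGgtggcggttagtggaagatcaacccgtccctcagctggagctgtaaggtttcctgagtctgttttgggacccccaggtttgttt
Ccnb1: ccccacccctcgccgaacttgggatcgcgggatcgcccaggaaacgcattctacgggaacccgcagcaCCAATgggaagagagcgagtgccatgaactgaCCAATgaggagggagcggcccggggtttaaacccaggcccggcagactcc
Over the 250 bases before the start, TTTGAA was found for 7 of 17 mitosis genes with a sequence (41.2%) and in 16.0% of 27457 promoters. CCAAT was found for 14 of 17 (82.4%) and in 34.3% of promoters. Ccnb1 held CCAAT but not TTTGAA in this window.

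Of 23 tested genes of DNA replication, 8 fell (34.8%, against 19.4% of all genes) and none rose, with a median of -0.48. The falls numbered 1 without sham 1, sham 3 and sham 4, where 7.98% of all genes were called in either direction. Tk1, thymidine kinase, fell by 1.30 (adjusted p = 0.00026), whereas Mcm2, of the replicative helicase, averaged 2026 ± 288 in Cur/ZNP gel and 2263 ± 492 in sham (-0.14 ± 0.17, adjusted p = 0.51). H2ax, the histone variant that marks DNA breaks, had 1098, 1123, 1050.4, 1769.8 and 1228 normalized counts in the Cur/ZNP gel libraries, against 4239, 2519, 4244, 3157 and 2923 in the sham libraries (-1.44 ± 0.16, adjusted p = 9.3e-06), and Kpna2, an importin of dividing cells, fell by 1.18 (adjusted p = 1.1e-05). The groups did not overlap for Tk1, H2ax or Kpna2.

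Genes for proteins of the cytosolic ribosome fell as one block. All 30 tested were called lower, against 19.4% of all genes, with a median of -1.06. For 28 of them the groups did not overlap, against 9.26% of all genes. All 30 kept the direction and the call whichever single library was left out. The number of falls was 22 without sham 1, sham 3 and sham 4, with a median of -0.60, and 17 with scaling by the library total. Rpl13, a protein of the large subunit, had 41799, 29721, 38065, 38211 and 35009 normalized counts in the Cur/ZNP gel libraries, against 114782, 59553, 163663, 84204 and 60839.8 in the sham libraries (-1.30 ± 0.20, adjusted p = 0.00011). Sham 3 and sham 1 were highest, and sham 2 and sham 5, the lowest sham libraries, still lay above all Cur/ZNP gel libraries. The member that moved least was Rps16, of the small subunit (-0.45 ± 0.14, adjusted p = 0.014), with overlap and without a call under library-total scaling, with both groups fitted alone or without sham 1, sham 3 and sham 4. Ribosomal protein genes have many near-identical pseudogenes, so counting between copies is uncertain. The 13 transcripts of the mitochondrial genome gave no call in limma (0 at an unadjusted p under 0.05) and none in edgeR, with differences of -0.46 to 0.30 on the log2 scale.

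**Figure D2:**
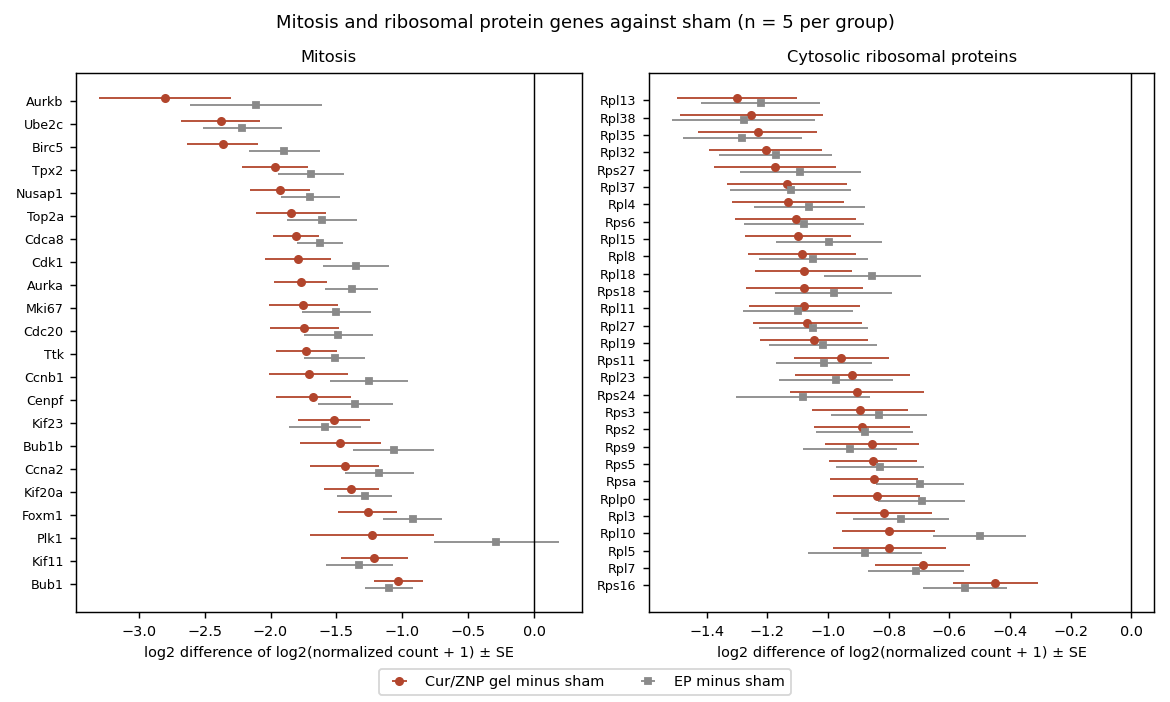
Log2 differences (log2 of normalized count + 1) ± SE for 22 mitosis genes at left and 29 of the 30 cytosolic ribosomal protein genes at right, from limma with 5 libraries per group. Circles are Cur/ZNP gel minus sham and squares EP minus sham, which share the sham libraries. Every circle lies below 0, from -2.80 for Aurkb to -1.03 for Bub1 and from -1.30 for Rpl13 to -0.45 for Rps16.

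Genes of skeletal muscle gave the largest rises. Skeletal muscle is not a part of gingiva and lies beside it in lip and cheek, and muscle content and expression cannot be told apart in these samples. Of 21 genes of the sarcomere, the contractile unit, 16 rose, with a median of 3.37; without sham 4, 10 rose. The summed counts were 1975058, 1037016, 484380.4, 2168657 and 3583309 in Cur/ZNP gel and 516688, 217635, 303453, 53814 and 51990.2 in sham. Cur/ZNP gel 3 was the lowest of its group and lay below sham 1. EP rats, against the same sham libraries, also gave 16 rises among these 21 genes (median 3.45). Acta1, skeletal muscle actin, had 320170.4, 171146, 78381, 369923 and 530779 normalized counts in the Cur/ZNP gel libraries, against 76469, 31963, 61816, 4447 and 6310.5 in the sham libraries (3.52 ± 1.15, adjusted p = 0.019), and lost the call without sham 4 (adjusted p = 0.057; 0.065 without sham 4, EP 3 and EP 4). Mylk4, a myosin light chain kinase, differed most of all genes that passed the conditions for naming, with 3084, 1231, 524, 2850.4 and 6515 normalized counts in the Cur/ZNP gel libraries, against 162, 71.1, 45.9, 0 and 0 in the sham libraries (7.19 ± 1.45, adjusted p = 0.0008). Its call was lost in voom (adjusted p = 0.26), and 2 of its sham libraries were at 0, so that the size of the difference depends on the added count. Myh8 and Myh3, the myosin heavy chains of newborn and embryonic muscle, differed by 6.62 ± 1.49 and 3.37 ± 1.03 (adjusted p = 0.0018 and 0.013), with uncertain counting between the similar genes of this family and no call in voom (adjusted p = 0.30 and 0.14). Nebulin (Neb) differed by 3.80 ± 1.16 (adjusted p = 0.013).

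Of 15 genes of muscle calcium release and energy supply, 12 rose (median 3.37; 6 without sham 5 and 5 without Cur/ZNP gel 5), and of 11 myogenic regulators 8 rose (median 3.18; 5 without Cur/ZNP gel 5). Without sham 1, sham 3 and sham 4, none of the sarcomere genes and 1 gene in each of the other muscle lists were called, with medians of 4.10, 4.15 and 4.06. Nuclear genes of oxidative phosphorylation, the respiratory chain, which muscle uses heavily, had 14 of 25 called higher (median 0.99). That count was 8, 9 and 7 without sham 1, sham 2 and sham 5, 7, 7 and 5 without Cur/ZNP gel 1, 4 and 5, and 3 without sham 1, sham 3 and sham 4. Atp5f1a, of the ATP synthase, had 79007, 48512, 32254, 79769 and 112626 normalized counts in the Cur/ZNP gel libraries, against 24319.5, 28220.2, 24908, 22389 and 22719 in the sham libraries (1.40 ± 0.41, adjusted p = 0.011; no call without sham 1, sham 3 and sham 4). Within Cur/ZNP gel it was lowest in Cur/ZNP gel 3, which also had the lowest sarcomere sum, and highest in Cur/ZNP gel 5, which had the highest. Ppargc1a, which switches on mitochondrial genes, rose by 3.24 ± 0.62 (adjusted p = 0.00056), and kept its call in every alternative run. The part of muscle content in the respiratory genes was not tested.

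Genes of the connective tissue matrix were mostly higher. Fibroblasts make the collagens and proteoglycans that give gingiva its firmness, and periodontitis breaks them down. Of 22 genes, 12 rose and 1 fell, with a median of 0.68, and 4 rose without sham 1, sham 3 and sham 4. Dcn, decorin, a proteoglycan that coats collagen fibrils, had 70267, 65471, 64332, 80930.1 and 70787 normalized counts in the Cur/ZNP gel libraries, against 18895, 30283, 16964, 20904 and 25762 in the sham libraries (1.67 ± 0.21, adjusted p = 2.9e-05). The lowest Cur/ZNP gel library held 64332 and the highest sham library 30283 normalized counts. Col14a1, a collagen bound to fibril surfaces, had 12972, 7573, 8859, 13513 and 14185 normalized counts in the Cur/ZNP gel libraries, against 879.5, 3724, 1415, 707 and 2040.0 in the sham libraries (2.92 ± 0.42, adjusted p = 8.2e-05). Fibronectin (Fn1) averaged 33204 ± 6668 in Cur/ZNP gel and 10747 ± 4098 in sham (1.68 ± 0.27, adjusted p = 0.00016). Col3a1 differed by 1.26 ± 0.32 (adjusted p = 0.0041), a call lost without sham 1, sham 3 and sham 4, and Col1a1, the main fibrillar collagen, by 0.16 ± 0.36 (adjusted p = 0.74). Lox, which crosslinks collagen, was the 1 member that fell (-1.44 ± 0.43, adjusted p = 0.012), also without a call when those 3 libraries were left out, with library-total scaling or with sample weights. In EP rats, against the same sham libraries, Dcn differed by 0.59 (adjusted p = 0.032), Fn1 by 0.94 (adjusted p = 0.0099) and Col3a1 by 0.34 (adjusted p = 0.41). Cur/ZNP gel minus EP was 1.08 for Dcn (unadjusted p = 3.8e-05, adjusted p = 0.29).

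Of 21 metalloproteinases and their inhibitors, 9 rose and 1 fell (median 0.97). Timp3, an inhibitor held in the matrix, had 11642, 12615, 11942, 9346 and 12675 normalized counts in the Cur/ZNP gel libraries, against 1675, 6478, 3409, 2555 and 6482 in the sham libraries (1.68 ± 0.28, adjusted p = 0.00018). Sham 2 and sham 5 were nearest to Cur/ZNP gel, but the groups did not overlap. Timp4 rose by 1.26 ± 0.35 (adjusted p = 0.0072). Mmp13, the collagenase of bone and cartilage, was the 1 member that fell, with 121, 245, 52.7, 153 and 18.8 normalized counts in the Cur/ZNP gel libraries, against 1295, 197, 3349, 8017 and 1704 in the sham libraries (-4.24 ± 1.07, adjusted p = 0.0038). Sham 2 lay inside the Cur/ZNP gel range, and the calls of Mmp13 and Timp4 were lost without sham 1, sham 3 and sham 4. Mmp9, the gelatinase of neutrophils and osteoclasts, had 3715, 934, 56.4, 116 and 74.4 normalized counts in the Cur/ZNP gel libraries, against 342, 196, 910.0, 463 and 355 in the sham libraries (-0.51 ± 0.94, adjusted p = 0.69). For Mmp9 the groups overlapped widely.

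Of 10 adipocyte genes 8 rose, with a median of 1.80. That count was 4, 5 and 3 without sham 1, sham 3 and sham 4 in turn, and 3, 3 and 5 without Cur/ZNP gel 1, 4 and 5. Pparg, the master regulator of fat cells, had 1223, 462, 711, 955 and 708 normalized counts in the Cur/ZNP gel libraries, against 243, 327, 229, 256 and 241 in the sham libraries (1.58 ± 0.32, adjusted p = 0.00073), with no overlap and a call in every alternative run. Fabp4, a fatty acid carrier, had 21259, 6554, 9235, 18580.2 and 18994 normalized counts in the Cur/ZNP gel libraries, against 2375, 4979, 4765, 8011 and 2115 in the sham libraries (1.78 ± 0.48, adjusted p = 0.0066). Cur/ZNP gel 2 was the lowest of its group and lay below sham 4. Without sham 1, sham 3 and sham 4, Pparg was the 1 gene called. Adipoq, the first gene of the list, was not called with all libraries. Its difference was 1.10 to 2.37 over 27 alternatives, 4 of which called it. For 2 of the 10 adipocyte genes all Cur/ZNP gel libraries lay above all sham libraries, against 9.51% of all genes.

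Resident immune and blood genes also rose, but not as a whole. Complement is a cascade of plasma proteins that tags and punctures microbes. Of its 27 genes 11 rose (40.7%, against 20.2% of all genes) and none fell, with a median of 0.68. The rises numbered 7 without sham 1 and 5 without sham 1, sham 3 and sham 4. C7, a part of the membrane attack complex, had 6502, 4123, 3039, 7121 and 6691 normalized counts in the Cur/ZNP gel libraries, against 224, 1478, 302, 95.5 and 1644 in the sham libraries (3.58 ± 0.58, adjusted p = 0.00016). Sham 2 and sham 5 were above the other sham libraries, and neither reached the lowest Cur/ZNP gel value. C6, of the same complex, differed by 3.19 ± 0.47 (adjusted p = 8.7e-05) and C4b by 1.83 ± 0.35 (adjusted p = 0.00054). C3, the central component, was not among the calls.

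Of 18 genes of macrophages and monocytes 7 rose (38.9%, against 20.2% of all genes), with a median of 0.74. Without sham 1, sham 3 and sham 4, 6 rose. Cd163, the scavenger receptor for hemoglobin, had 1794, 3169, 1025, 1572 and 2351 normalized counts in the Cur/ZNP gel libraries, against 146, 191, 237, 504 and 456 in the sham libraries (2.75 ± 0.38, adjusted p = 6.8e-05). Lyve1, which both tissue macrophages and lymphatic vessels express, had 4044, 1963, 2572, 3095 and 5298 normalized counts in the Cur/ZNP gel libraries, against 450.3, 665, 328, 728 and 551 in the sham libraries (2.61 ± 0.33, adjusted p = 2.5e-05). Outside the list, F13a1, a transglutaminase, had 3184, 1924, 1672, 2764 and 3450.2 normalized counts in the Cur/ZNP gel libraries, against 188, 281, 129.8, 112 and 239.8 in the sham libraries (3.80 ± 0.32, adjusted p = 3.3e-07), the second smallest p of all rises. The groups lay apart for all 3 of these genes. Mrc1 differed by 1.88 ± 0.31 and Msr1 by 2.42 ± 0.44 (adjusted p = 0.00019 and 0.00039). By contrast, Cd68, found in all macrophages, averaged 1072 ± 390.2 in Cur/ZNP gel and 963 ± 389 in sham (0.17 ± 0.33, adjusted p = 0.69), and the summed counts of the list, 33225 to 58069.7 in Cur/ZNP gel and 15340.5 to 66105 in sham, overlapped.

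Mast cells hold proteases in their granules. Of 12 of their genes 6 rose (50%, against 20.2% of all genes) and 1 fell (median 1.37). Without sham 1, sham 3 and sham 4, 5 rose. Cpa3, carboxypeptidase A3, had 1471, 600.0, 999.5, 1395 and 970.2 normalized counts in the Cur/ZNP gel libraries, against 199, 196, 128, 193 and 162 in the sham libraries (2.57 ± 0.42, adjusted p = 0.00018). The proteases Cma1 and Tpsb2 differed by 2.13 ± 0.39 and 1.98 ± 0.38 (adjusted p = 0.00042 and 0.00054), and Il1rl1, the receptor for interleukin 33, by 2.26 ± 0.44 (adjusted p = 0.00061). In EP rats against the same sham libraries Cpa3 differed by 1.40 (adjusted p = 0.013) and Tpsb2 by 0.90 (adjusted p = 0.067). Of 6 erythroid genes, which report red blood cells, 4 rose (median 2.30), also without sham 1, sham 3 and sham 4. Hbb, beta globin, had 8929, 9255, 6265, 8103 and 8768 normalized counts in the Cur/ZNP gel libraries, against 1941, 1064, 795, 2238 and 1170.3 in the sham libraries (2.61 ± 0.36, adjusted p = 6.8e-05). The lowest Cur/ZNP gel library, Cur/ZNP gel 3, held more than any sham library. Of 18 genes of endothelium 7 rose and of 12 genes of pericytes and smooth muscle 5. These were 38.9% and 41.7%, against 20.2% of all genes. Without sham 1, sham 3 and sham 4 these counts were 1 and 0, where 7.98% of all genes were called in either direction. Leaving out 1 library took the pericyte count to 8 without sham 2 or Cur/ZNP gel 1, to 5 without sham 5, and to 3 without any other library.

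**Figure D3:**
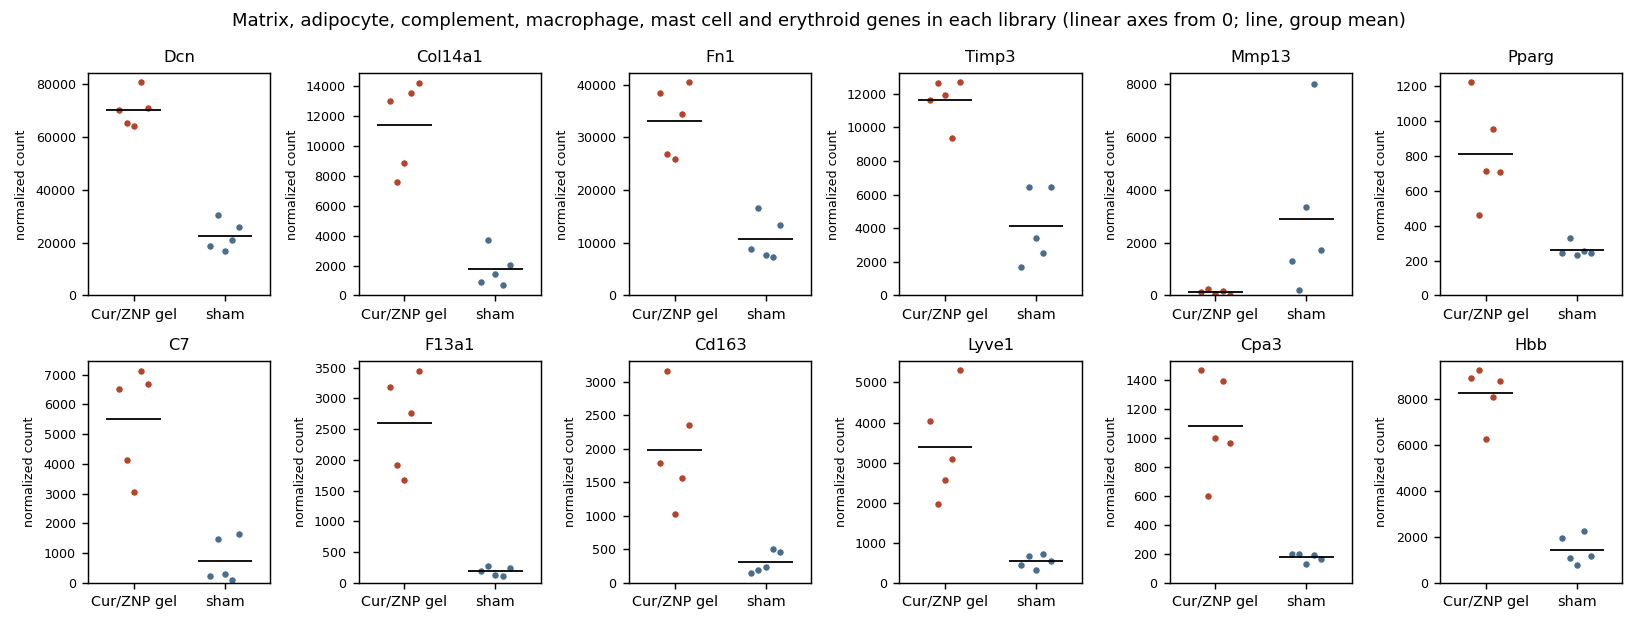
Normalized counts (linear axes from 0) of matrix and adipocyte genes in the upper row and of complement, macrophage, mast cell and erythroid genes in the lower row. Each point is 1 library, with Cur/ZNP gel left and sham right (5 each), and lines are group means. For 11 of the 12 genes the Cur/ZNP gel points lie above all sham points. For Mmp13 the sham points reach 8017 normalized counts and the lowest, sham 2, lies among the Cur/ZNP gel points.

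Lymphocyte genes were mostly lower where they differed. Of 16 genes of B cells and plasma cells, which make antibodies and gather in chronic periodontitis, 8 fell (median -2.94). Single libraries carried much of that count, which was 2, 3 and 4 without sham 1, sham 4 and sham 5 and 3 and 2 without Cur/ZNP gel 1 and 5. Only 1 was called without sham 1, sham 3 and sham 4. The summed normalized counts of the list were 21928, 65921, 34430.3, 122690.1 and 18036 in Cur/ZNP gel and 162005, 74234, 73719, 491067 and 101821 in sham. Cur/ZNP gel 4 lay above sham 2, sham 3 and sham 5, so that the groups overlapped. In EP rats against the same sham libraries 1 of the 16 genes was called. Of 19 genes of T cells and natural killer cells 1 rose and 3 fell (15.8% lower, against 19.4% of all genes). The falls numbered 5, 6 and 5 without sham 2, sham 3 and Cur/ZNP gel 4. Of 22 genes of antigen presentation, 2 fell (9.09%).

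Inflammatory mediators gave few calls. Of 32 cytokines and chemokines 4 rose and 4 fell (against 20.2% and 19.4% of all genes). The falls numbered 0 without sham 1 or Cur/ZNP gel 5 and 2 without sham 5 or Cur/ZNP gel 1. Ccl11, eotaxin, which draws eosinophils, had 6643, 5345, 8783, 7823 and 8518 normalized counts in the Cur/ZNP gel libraries, against 1736, 3936, 1947, 1394 and 2260.1 in the sham libraries (1.79 ± 0.29, adjusted p = 0.00018), with no overlap between the groups. In EP it differed from the same sham libraries by 0.58 (adjusted p = 0.12), and Cur/ZNP gel minus EP was 1.21 (adjusted p = 0.29). Il1b had 228, 2828, 204, 179 and 63.5 normalized counts in the Cur/ZNP gel libraries, against 689, 226, 235, 799 and 377 in the sham libraries (-0.57 ± 0.86, adjusted p = 0.62). Tnf lay at 10.2 to 83.1 in Cur/ZNP gel and 11.8 to 92.8 in sham (-0.47 ± 0.77, adjusted p = 0.65). Of 14 neutrophil genes 4 rose (28.6%, against 20.2% of all genes). Retnlg and Cxcr2 differed by 2.70 ± 0.60 and 1.42 ± 0.34 (adjusted p = 0.0015 and 0.0029). Retnlg had no call in voom (adjusted p = 0.060), and Cxcr2 had none without sham 1, sham 3 and sham 4. Il1r2, the decoy receptor for interleukin 1, had 627, 670.1, 863, 573 and 465 normalized counts in the Cur/ZNP gel libraries, against 241, 277, 271, 276 and 275 in the sham libraries (1.22 ± 0.22, adjusted p = 0.0003), and the highest sham library stayed below the lowest Cur/ZNP gel library.

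Of 25 genes of the Toll-like receptors and NF-kB, the route by which P. gingivalis is sensed, 5 rose and 2 fell. These were 20% and 8%, against 20.2% and 19.4% of all genes. Traf6, an adaptor of that route, had 991, 692, 1150.3, 1086 and 989 normalized counts in the Cur/ZNP gel libraries, against 314, 682, 265, 195 and 529 in the sham libraries (1.43 ± 0.23, adjusted p = 0.00017), while the receptor gene Tlr4 differed by 0.30 ± 0.20 (adjusted p = 0.22). Of 24 interferon-induced genes 5 rose (20.8%, near the 20.2% of all genes) and none fell. The rises numbered 3 without Cur/ZNP gel 2 or Cur/ZNP gel 5, and there were none without sham 1, sham 3 and sham 4. Ddx58, the RNA sensor RIG-I, had 420.1, 449.8, 407, 333 and 639 normalized counts in the Cur/ZNP gel libraries, against 73.8, 213, 27.5, 65.0 and 231 in the sham libraries (2.24 ± 0.46, adjusted p = 0.0009). Isg15 differed by -0.04 ± 0.61 (adjusted p = 0.97). Of 18 genes of leukocyte adhesion 4 rose and 4 fell (22.2% each, against 20.2% and 19.4% of all genes). The rises numbered 2 without Cur/ZNP gel 2, and the falls 2 and 1 without sham 1 and Cur/ZNP gel 5.

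Epithelial genes moved in both directions. Keratins Krt4 and Krt13 mark the upper layers of oral lining epithelium, and Krt14 the basal layer that sits on the basement membrane. Of 23 genes of differentiated keratinocytes 8 rose and 1 fell (median 0.70), and of 9 basal genes 1 rose and 4 fell (median -0.61). Krt4 had 511171, 164149, 364231, 371351 and 645626 normalized counts in the Cur/ZNP gel libraries, against 81088, 217293, 3915, 17731 and 89377 in the sham libraries (3.21 ± 0.81, adjusted p = 0.0039). Of its group, Cur/ZNP gel 2 alone lay below sham 2, and the other Cur/ZNP gel libraries lay above all sham libraries. Krt13 showed the same order of libraries at its extremes and differed by 2.33 ± 0.61 (adjusted p = 0.005). The cornified envelope genes Sprr3 and Lor differed by 3.07 ± 0.61 and 2.59 ± 0.58 (adjusted p = 0.00071 and 0.0018). Krt10, the keratin of cornifying layers, was not called (-0.51 ± 0.72, adjusted p = 0.59), with 49061, 38515, 91229, 97372 and 32638 normalized counts in the Cur/ZNP gel libraries, against 92471, 225271, 103965, 9425 and 158593 in the sham libraries. None of the 23 genes was called without sham 1, sham 3 and sham 4, when their median was -0.34.

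In the basal list, Krt14 had 119301, 72448, 121238, 95054 and 60480.4 normalized counts in the Cur/ZNP gel libraries, against 355496, 349872, 626327, 29142 and 309315 in the sham libraries (-1.37 ± 0.59, adjusted p = 0.066). All Cur/ZNP gel libraries lay below 4 of the sham libraries and above sham 4. Without sham 1, sham 3 and sham 4 the basal falls also numbered 4, but they did not include Itga6, an integrin chain that fell with all libraries (-0.61 ± 0.22, adjusted p = 0.034). The Itga6 call was lost in 12 of 27 alternatives, 7 of them with 1 library left out (adjusted p up to 0.10). Others were edgeR, voom, library-total scaling and both groups fitted alone. The basal falls numbered 2 without sham 1, sham 2, sham 3, sham 5 or Cur/ZNP gel 1, 4 or 5. Of 14 genes of epithelial junctions 1 rose and 3 fell (7.14% and 21.4%, against 20.2% and 19.4% of all genes). The falls numbered 8 without sham 4, 1 without sham 1, sham 2 or sham 5, and 0 without sham 3 or Cur/ZNP gel 1, 4 or 5. Odam, which junctional epithelium makes where it meets the tooth, had 403, 3066, 1739, 67.0 and 19.8 normalized counts in the Cur/ZNP gel libraries, against 4499, 7280.0, 6521, 18375 and 7036 in the sham libraries (-4.62 ± 2.27, adjusted p = 0.11). All Cur/ZNP gel libraries lay below all sham libraries for Odam, but the spread within Cur/ZNP gel was wide.

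Bone genes in these gingival samples were mixed. Of 18 genes of osteoblasts and mineralized matrix 2 rose and 6 fell (median -1.30), and without sham 1, sham 3 and sham 4 1 rose and 2 fell. Bglap, osteocalcin, had 364, 903, 175, 351 and 70.4 normalized counts in the Cur/ZNP gel libraries, against 2239.9, 249, 10622, 2020.4 and 1248 in the sham libraries (-2.67 ± 0.81, adjusted p = 0.013). Sham 3 was the highest and sham 2 lay within the Cur/ZNP gel range. Alpl, bone alkaline phosphatase, fell by 1.33 (adjusted p = 0.01). Dlx5, an osteoblast transcription factor, had 702, 436, 612, 549.6 and 339 normalized counts in the Cur/ZNP gel libraries, against 1773, 1431, 5178, 805 and 1691 in the sham libraries (-1.80 ± 0.40, adjusted p = 0.0017), with no overlap. Phex, a peptidase of bone cells, rose, with 459, 314, 226, 539 and 513 normalized counts in the Cur/ZNP gel libraries, against 41.1, 57.8, 117, 28.5 and 182 in the sham libraries (2.50 ± 0.44, adjusted p = 0.00029). Tnfrsf11b, osteoprotegerin, the decoy receptor that restrains osteoclasts, had 592, 877, 802, 794 and 2344 normalized counts in the Cur/ZNP gel libraries, against 226, 383, 198, 362 and 609 in the sham libraries (1.53 ± 0.34, adjusted p = 0.0015). Cur/ZNP gel 5 was far above the rest, and Cur/ZNP gel 1 lay below sham 5. The calls of Bglap, Alpl and Tnfrsf11b were lost without sham 1, sham 3 and sham 4, those of Bglap and Alpl also with both groups fitted alone, and those of Dlx5 and Phex were kept. Against the same sham libraries, EP differed by -1.04 for Bglap, -0.16 for Alpl and 0.73 for Tnfrsf11b (adjusted p = 0.33, 0.77 and 0.092). Of 12 osteoclast genes 4 rose (33.3%, against 20.2% of all genes). Those rises numbered 2 without sham 3, Cur/ZNP gel 2 or Cur/ZNP gel 5. Acp5, the phosphatase of osteoclasts, differed by -0.75 ± 0.32 (adjusted p = 0.069).

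Ceacam1 is a cell adhesion molecule that the study reported from its RNA sequencing and also measured by PCR. The paper gave it as upregulated in EP, and as lower in Cur/ZNP gel than in either single-drug gel. Those gels are not compared here. Ceacam1 had 704, 2481, 2143, 791 and 527 normalized counts in the Cur/ZNP gel libraries, against 979, 1435, 542, 4677 and 1448 in the sham libraries (-0.34 ± 0.52, adjusted p = 0.62). Sham 4 was the highest of all these libraries, and the groups overlapped. EP minus sham was 1.10 (adjusted p = 0.098), and Cur/ZNP gel minus EP was -1.44 (adjusted p = 0.29). Cd47, an inhibitory ligand for phagocytes, averaged 3977 ± 909 in Cur/ZNP gel and 4268 ± 2036 in sham (-0.02 ± 0.26, adjusted p = 0.95).

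Nerve and gland transcripts followed single libraries more than groups. Of 17 genes of autonomic neurons 6 fell (median -2.08) and of 21 genes of the neuronal cytoskeleton and vesicle release 9 fell (median -3.14). Vip, a neuropeptide of parasympathetic ganglia, had 5.22, 15713, 0, 0 and 8.93 normalized counts in the Cur/ZNP gel libraries, against 24570.5, 180.5, 57245, 20908 and 79.6 in the sham libraries (-7.74 ± 2.38, adjusted p = 0.014). Cur/ZNP gel 2 lay with sham 1, sham 3 and sham 4, and sham 2 and sham 5 with the other Cur/ZNP gel libraries. Snap25, of the release machinery, had 10.4, 3001, 0, 7.44 and 2.98 normalized counts in the Cur/ZNP gel libraries, against 6314, 92.5, 13132, 5793 and 51.1 in the sham libraries (-6.18 ± 1.82, adjusted p = 0.011), with the same division of libraries. Both calls were lost in edgeR (adjusted p = 0.29 for Vip and 0.14 for Snap25), in DESeq2 (0.40 and 0.11), in voom (0.31 and 0.27) and with both groups fitted alone (0.074 and 0.075). The autonomic falls numbered 2 without sham 1, sham 3, sham 4, or Cur/ZNP gel 3, 4 or 5, 3 without Cur/ZNP gel 1 and 11 without Cur/ZNP gel 2. The cytoskeletal falls numbered 2 without sham 1, sham 3, or Cur/ZNP gel 3 or 4, 3 without sham 4 or Cur/ZNP gel 1, 5 without Cur/ZNP gel 5, and 14, 19 and 16 without sham 2, sham 5 and Cur/ZNP gel 2. Without sham 1, sham 3 and sham 4 together, no gene of either list was called and the medians were 0.30 and 0.33. These sham libraries were left out for their high neuronal transcripts, so that this result followed from the choice. Cur/ZNP gel 2, also high in neuronal transcripts, was kept. Of 14 Schwann cell genes only Ngfr, the low-affinity nerve growth factor receptor, fell (-1.56 ± 0.36, adjusted p = 0.0023), with a call in every alternative run.

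Of 10 salivary secretion genes and 18 genes of glandular epithelium none was called by limma (2 and 0 at an unadjusted p under 0.05) and none by edgeR. Muc5b, the mucin of mucous glands, had 22793, 2951081, 4143725, 21694 and 1797 normalized counts in the Cur/ZNP gel libraries, against 43852, 1795990.0, 1187, 50718 and 1303017 in the sham libraries. It was high in Cur/ZNP gel 2, Cur/ZNP gel 3, sham 2 and sham 5, thus in both groups. Of 10 genes for nasal gland and odorant-binding proteins, 1 rose and 1 fell in limma, against 1 and 8 in edgeR (median -7.77). Obp1f, an odorant-binding protein, had 611, 29281, 3706, 3528 and 1814 normalized counts in the Cur/ZNP gel libraries, against 2920.1, 1044, 1113, 12414470.0 and 336 in the sham libraries, and sham 4 held nearly all of its counts.

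**Figure D4:**
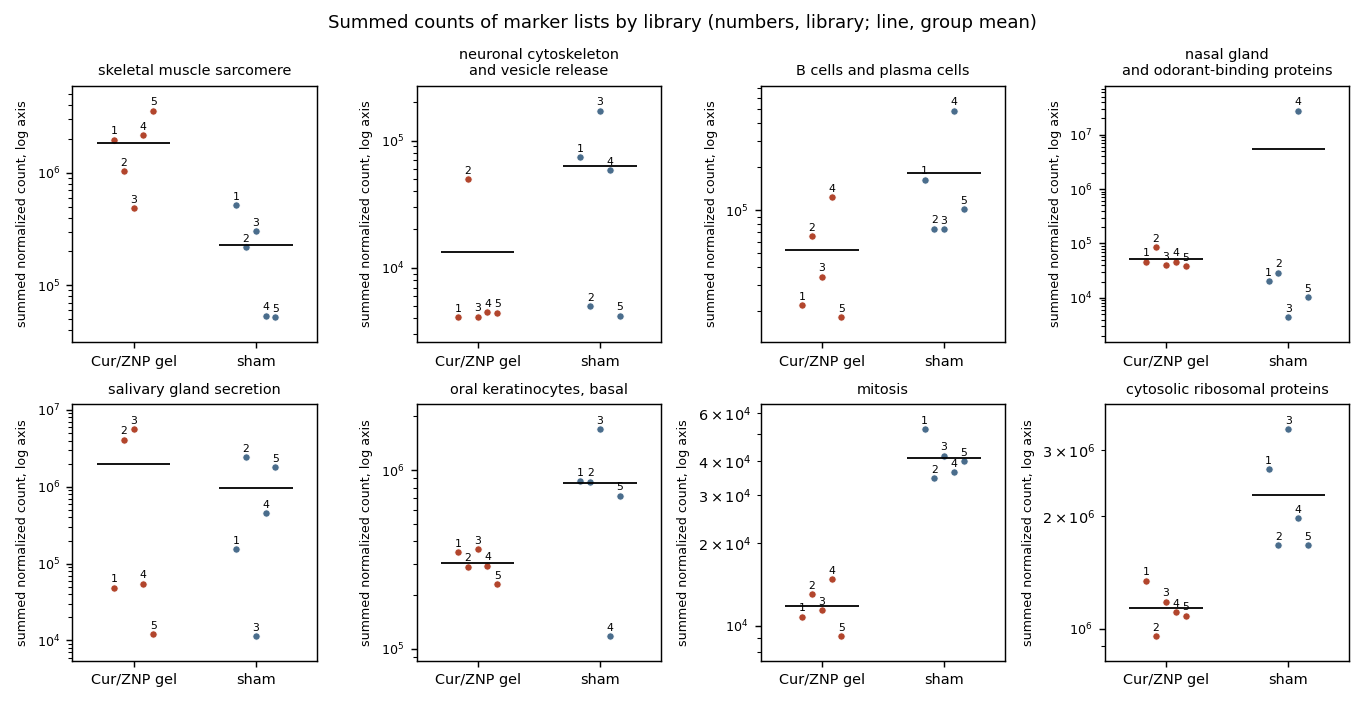
Summed normalized counts (log axes) of 8 gene lists in each library, with Cur/ZNP gel left and sham right; numbers name the library and lines are group means. Mitosis and cytosolic ribosomal protein sums do not overlap between the groups. Neuronal sums are high in Cur/ZNP gel 2, sham 1, sham 3 and sham 4, and the nasal gland sum is high in sham 4.

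Cells answer zinc through the sensor MTF1, which turns on metallothioneins and the exporter Slc30a1. Of 24 genes of zinc handling 4 rose and 4 fell (16.7% each, against 20.2% and 19.4% of all genes; 2 fell without sham 3), and without sham 1, sham 3 and sham 4 none rose and 1 fell. Mt1 had 398, 556, 372, 262 and 279 normalized counts in the Cur/ZNP gel libraries, against 1367, 851, 1461, 500.0 and 803 in the sham libraries (-1.36 ± 0.36, adjusted p = 0.0058), and sham 4 was the sham library inside the Cur/ZNP gel range. Slc30a1 had 1919, 1916, 1962, 1898 and 1768 normalized counts in the Cur/ZNP gel libraries, against 668, 2006, 888, 451 and 1706 in the sham libraries (0.94 ± 0.26, adjusted p = 0.0068). Sham 2 lay above every Cur/ZNP gel library, and sham 5 just below the lowest. EP against the same sham libraries gave 0.92 for Slc30a1 and -0.55 for Mt1 (adjusted p = 0.0084 and 0.24). Mtf1 differed by 0.85 ± 0.21 (adjusted p = 0.004). The calls of Mt1, Slc30a1 and Mtf1 were lost without sham 1, sham 3 and sham 4, that of Mt1 also with library-total scaling and those of Slc30a1 and Mtf1 with both groups fitted alone.

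NRF2 is the sensor of electrophiles that curcumin is known to activate in cultured cells. Of 24 of its targets and peroxide enzymes 4 rose and 4 fell (again 16.7% each, against 20.2% and 19.4% of all genes; 8 fell without sham 4). Hmox1, heme oxygenase, had 3702, 2238, 2949, 2036 and 3309 normalized counts in the Cur/ZNP gel libraries, against 1245, 1482, 1396, 890.3 and 1674 in the sham libraries (1.08 ± 0.25, adjusted p = 0.0021), with no overlap, and catalase (Cat) differed by 0.75 ± 0.20 (adjusted p = 0.0057). Gpx2 and Prdx1 fell by 1.17 and 0.69 (adjusted p = 0.0023 and 0.0032), calls that scaling by the library total took away. The calls of Hmox1, Gpx2 and Prdx1, but not that of Cat, were also lost without sham 1, sham 3 and sham 4. The gene of NRF2 itself, Nfe2l2, differed by -0.22 ± 0.14 (adjusted p = 0.22). Outside the list, Gsta1, a glutathione transferase, had 6968, 5337, 5626, 6751 and 6689 normalized counts in the Cur/ZNP gel libraries, against 908, 1361, 1813, 1008 and 1371 in the sham libraries (2.31 ± 0.25, adjusted p = 9.3e-06). Its Cur/ZNP gel libraries lay close together and far above sham, with a call in every alternative run, and EP minus sham was 1.23 (adjusted p = 0.001). Genes of endoplasmic reticulum stress (1 rose and 2 fell of 17) and of heat shock (2 rose and 1 fell of 15) gave few calls. Calls in either direction took 17.6% and 20% of them, against 39.6% of all genes. Of 19 immediate early genes 5 rose (3 without sham 4, sham 5, Cur/ZNP gel 3 or Cur/ZNP gel 5) and 2 fell; Klf6 differed by 1.51 ± 0.27 (adjusted p = 0.00037).

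Of 28 genes of BMP and TGF-beta signaling, which guides bone, matrix and epithelial growth, 10 rose and 6 fell (median 0.27), and 2 rose and 5 fell without sham 1, sham 3 and sham 4. The ligand Bmp2 had 646, 449.8, 686, 636 and 642 normalized counts in the Cur/ZNP gel libraries, against 1659, 1150.4, 2029.8, 752 and 1482 in the sham libraries (-1.14 ± 0.24, adjusted p = 0.0011). The groups did not overlap for Bmp2. Bmp4, another ligand, differed by 1.13 ± 0.29 (adjusted p = 0.0045), and the coreceptor Tgfbr3 by 1.06 ± 0.16 (adjusted p = 0.00011). Id1 and Id3, direct targets of BMP signals, fell by 1.29 and 0.95 (adjusted p = 0.0011 and 0.0022). The calls of Bmp2, Id1 and Id3 were lost with scaling by the library total, and that of Bmp4 without sham 1, sham 3 and sham 4. Of 28 Wnt genes 5 rose and 4 fell (7 fell without sham 4). These were 17.9% and 14.3%, below the 20.2% and 19.4% of all genes. The coreceptor Lrp6 had 4132, 4643, 4894, 4534 and 5317 normalized counts in the Cur/ZNP gel libraries, against 898, 3447, 795, 636 and 3210.3 in the sham libraries (1.76 ± 0.33, adjusted p = 0.00048), where sham 2 and sham 5 stood between the other sham libraries and Cur/ZNP gel. Lef1, a transcription factor of the pathway, fell by 2.37 (adjusted p = 0.0026; no call without sham 1, sham 3 and sham 4), and its target Axin2 differed by -0.26 ± 0.18 (adjusted p = 0.27).

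**Figure D5:**
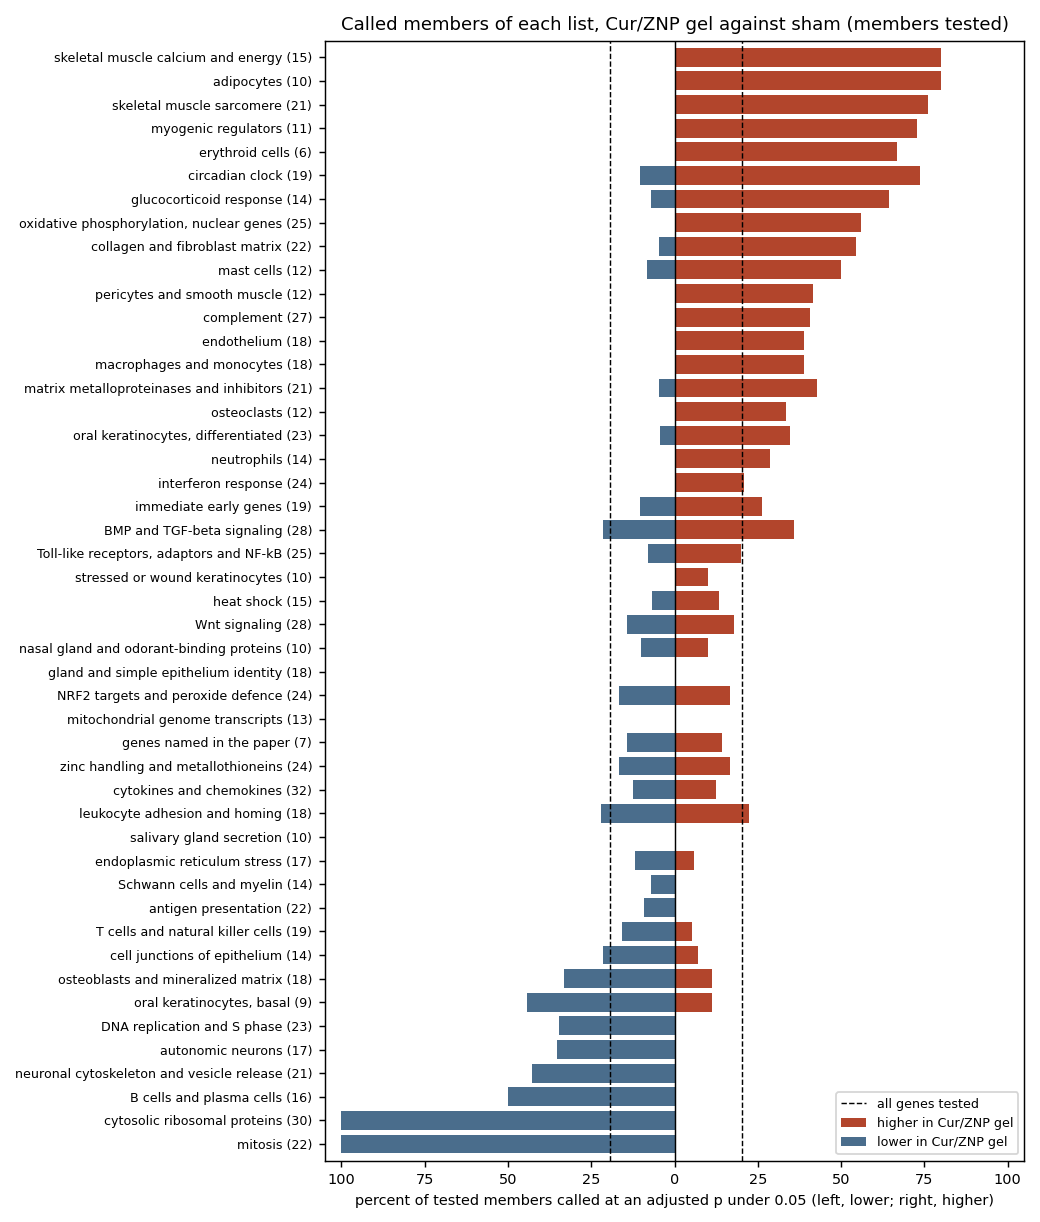
Percent of the tested members of each list (number in brackets) called at an adjusted p under 0.05 in Cur/ZNP gel against sham, right for higher and left for lower, for lists with at least 5 tested members. Dashed lines mark all 16062 genes (20.2% higher and 19.4% lower). The bars of mitosis and cytosolic ribosomal proteins reach 100% on the lower side, and the longest bars on the higher side are those of muscle, adipocyte and clock genes.

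EP rats differed from the same sham libraries at 6039 genes (37.6%), 3018 higher and 3021 lower. Since both comparisons share the sham libraries, their values are given side by side and not as overlap. Cur/ZNP gel gave 22 falls among the 22 mitosis genes (median -1.74), against 21 (median -1.44) for EP, and both gave 30 falls among the 30 ribosomal protein genes. Both gave 16 rises among the 21 sarcomere genes (medians 3.37 and 3.45). Both also gave 14 rises and 2 falls among the 19 clock genes (medians 1.24 and 1.14). Muscle calcium and energy genes had 12 rises in Cur/ZNP gel and 10 in EP, myogenic regulators 8 and 7, and glucocorticoid-responsive genes 9 and 8. The collagen and matrix list had 12 rises and 1 fall in Cur/ZNP gel (median 0.68), against 6 rises and 2 falls in EP (median 0.29). The adipocyte list had 8 rises in Cur/ZNP gel (median 1.80), against 1 in EP (median 1.02). Whether these counts differ was not tested. Cur/ZNP gel against EP directly gave no gene at an adjusted p under 0.05 in limma (2052 at an unadjusted p under 0.05), none in edgeR (2290) and 206 in DESeq2, 85 higher and 121 lower in Cur/ZNP gel. The smallest adjusted p in limma was 0.29, shared by Dcn, Tsc22d3 and Ccl11 among others.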

How the data were processed

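RNA from the gingiva of 25 rats in 5 groups was sequenced by the authors after ribosomal RNA depletion with a stranded kit. Per the labels the reads were assigned to Rnor_6.0 and processed with DESeq2; the aligner was not given in the sources used here. The deposited table holds a signal, the count of each of 41078 Ensembl transcripts divided by 1 size factor per library. In it, 840 blank lines were left out, and 396 transcripts without a symbol were kept under their Ensembl identifier. Multiplying back gave whole reads for 100% of values within 0.01 in every library. Transcripts were summed to 30214 genes, and a gene entered the tests (16062 did) if any library reached 2 CPM, following the study's methods. Because the values were already divided by size factors, limma 3.58.1 (robust trend, R 4.3.3) was the main test. It was fitted to log2(normalized count + 1) over the 25 libraries jointly, so that the 5 groups share 1 estimate of spread, with Benjamini-Hochberg adjustment over all genes. edgeR 4.0.16 (quasi-likelihood test) and DESeq2 1.42.0 on the reads given back were alternatives, with other scalings, filters, pseudocounts (0.5 and 10), the 2 groups alone, sample weights, a replicate block and libraries left out. Scripts were tested on simulated data. Library measures were compared by two-sided exact permutation tests, whose smallest p is 0.00794.

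Named genes were, among called genes with no overlap and a mean log2 CPM of at least 1, the 12 largest rises and falls and the next 10 of each by p, up to 4 called genes and the first gene of each of 48 lists, and the genes the study names. Another 33 genes were added after their values were seen, and 6 genes are not reported here. The members and lists were chosen with earlier results of these data known. In the lists, 48 of 940 entries had no match. Promoters came from RefSeq (GRCr8) and were found by symbol for 17 of 22 mitosis and 16 of 19 clock genes.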

Additional observations from a re-analysis of the deposited data

Results flagged for a closer look

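For each named gene and library measure, the highest and lowest of the 5 libraries of a group were compared with the other 4. A library was listed where its gap to the nearest of them exceeded 0.71 of the group's range on the log2 scale (library measures on their own scale). This was the case in 43 of 530 groups examined. Chance gives about 1 in 20 groups, and genes are not independent of each other. Of the 43, 17 were in sham 4 and 14 in Cur/ZNP gel 2. The gap divided by the range stands in brackets. Cur/ZNP gel 1 was the high library for Nr1d1 (0.773). Cur/ZNP gel 2 was the high library for Arntl (0.898), Nefl (0.783), Tubb3 (0.879), Vip (0.762) and the share of nasal gland genes (0.72). Cur/ZNP gel 2 was the low library for Bmp2 (0.821), Lce1f (0.764), Mmp2 (0.796), Prox1 (0.768), Slpi (0.741), Sprr3 (0.783), Per3 (0.901), Npas2 (0.822) and Bmp4 (0.735). Cur/ZNP gel 3 was the low library for Mrc1 (0.773) and Myh3 (0.765). Cur/ZNP gel 4 was the low library for Timp3 (0.721). Cur/ZNP gel 5 was the high library for Tnfrsf11b (0.714) and Cat (0.807). Sham 1 was the low library for Il1r2 (0.844). Sham 2 was the high library for Gpr165 (1). Sham 3 was the low library for Alas2 (0.722), C4b (0.827), Fos (0.755) and Ppargc1a (0.787). Sham 4 was the high library for Calr (0.853), Cwh43 (0.771), Obp1f (0.795), Sfrp4 (0.801), Slc30a6 (0.734), Cat (0.723), the share of the 10 highest genes (0.867) and the share of nasal gland genes (0.998). Sham 4 was the low library for Axin2 (0.793), Dsp (0.734), Krt10 (0.719), Krt14 (0.77), Nfe2l2 (0.751), Nlrp10 (0.789), Tpsb2 (0.746), Ccnb1 (0.917) and Plk1 (0.752).

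Sham 4 held 22.2% of its reads on nasal gland genes and 51.0% on its 10 highest genes. It was the low library for the basal keratinocyte gene Krt14 (29142 normalized counts, against 626327 in the highest sham library) and for Ccnb1. Cur/ZNP gel 2 was the only library of its group with high neuronal transcripts, and the clock genes Arntl, Per3 and Npas2 were at the edge of the group there. The part of tissue content in these values was not tested.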

How the results depend on the processing

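The count of genes differing between Cur/ZNP gel and sham, 6366 (3245 higher and 3121 lower), was 3372 with scaling by the library total (668 lower), 3653 with both groups fitted alone (1944 higher and 1709 lower), 2814 with a difference of at least 2-fold also required (1964 and 850), and 1282 without sham 1, sham 3 and sham 4 (544 and 738). It was 1086 (471 and 615) without those and Cur/ZNP gel 2, an alternative chosen after seeing the data; 978 of these were among the 6366. In the other fits the count was 6359 in edgeR, 7217 in DESeq2 (13 genes without an adjusted p), 5465 in voom, and 5095 to 6680 elsewhere; leaving out 1 library gave 5140 to 7221. Cur/ZNP gel against EP gave 0 genes in limma and 206 in DESeq2. The cause of these differences was not tested. With a replicate block the count was 6298. Same-numbered libraries correlated at -0.27 to 0.30, and only number 4 matched its own number best. Whether the numbers pair the rats cannot be told from these correlations.

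The difference in size factor was 0.257 without sham 2 (exact permutation p = 0.0476); with 1 library left out, that in the top 10 share was -8.09 to 1.60 (1.60 without sham 4), in mitochondrial share -0.166 (without sham 2) to 1.83, and in nasal share -5.48 to 0.0608 (without sham 4). Of the 6366 genes called in the main test, 240 changed sign without sham 1, sham 3 and sham 4, 327 without those and Cur/ZNP gel 2, and 7 with library-total scaling, and none in the other alternatives. Among named genes, the log2 differences that changed sign, of which Myh11 alone was called in the main test, were without sham 1, sham 3 and sham 4 Acta2 -0.26, Hspa8 0.11, Isg15 0.53, Mmp9 0.086, Mt-co1 0.53, Muc5b -3.91, Myh11 -0.041, Obp1f 2.50; without Cur/ZNP gel 2, sham 1, sham 3 and sham 4 Acta2 -0.36, Hspa8 0.11, Isg15 0.15, Mcm2 0.033, Mpo -0.12, Mt-co1 0.48, Muc5b -5.13, Myh11 -0.11, Obp1f 1.72; in voom Cd47 0.011, Isg15 0.055, Mpo -0.29; with library-total scaling Cd47 0.19, Isg15 0.17, Mcm2 0.072, Mt-co1 0.10, Nr1d1 0.14; without sham 4, EP 3 and EP 4 Cd47 0.22, Ceacam1 0.093, Isg15 0.12, Mpo -0.73, Mt-co1 0.072, Muc5b -0.047, Obp1f 1.70; in edgeR Il1b 0.63, Isg15 0.21, Mmp9 1.16; in DESeq2 Il1b 0.60, Isg15 0.20, Mmp9 1.13; with sample weights Mt-co1 0.15, Muc5b -2.39, Obp1f 0.25, Nr1d1 0.0062. With 1 library left out, the differences that changed sign ranged over Cd47 -0.16 to 0.22, Cd68 -0.016 to 0.35, Ceacam1 -0.68 to 0.093, Col1a1 -0.049 to 0.42, Isg15 -0.41 to 0.23, Mmp9 -1.44 to 0.067, Mpo -0.81 to 1.15, Mt-co1 -0.28 to 0.084, Muc5b -1.40 to 1.62, Obp1f -2.09 to 1.70, Nr1d1 -0.19 to 0.068.

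A difference in depth between the groups was not detectable with these 10 libraries; the size factor of sham 4 was 0.492. Median list differences changed sign with library-total scaling for Wnt, NRF2, Toll-like receptor, zinc, heat shock and mitochondrial genome genes.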
